A study of Mus musculus with 18 samples.

Results

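The 66 genes described here encode the nuclear parts of mitochondrial respiratory complexes II to V, and they were examined for peaks of the histone demethylase KDM2A and of the histone mark it removes, H3K36me2 (dimethylated lysine 36 of histone H3). They were chosen by symbol among the 21938 protein-coding genes that the GENCODE M21 annotation of mouse genome GRCm38 places on the nuclear chromosomes. Complex II contributed 8 genes (Sdha to Sdhd and the Sdhaf factors), complex III 11 (Uqcr and Uqcc genes), complex IV 27 (Cox genes) and complex V 20 (Atp5 and Atpaf genes). The symbol Atp5o occurs on 2 annotation records of chromosome 16, which were kept apart. By role, 41 genes encode main subunits, 18 encode assembly factors and 7 encode tissue-restricted isoforms of complex IV (Cox4i2, Cox6a2, Cox6b2, Cox7a1, Cox7b2, Cox8b and Cox8c).

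Succinate dehydrogenase (complex II) passes electrons from succinate to ubiquinone, the cytochrome bc1 complex (III) hands them to cytochrome c, cytochrome c oxidase (IV) gives them to oxygen, and ATP synthase (V) uses the resulting proton gradient to make ATP. Apart from complex II, each complex also holds subunits encoded by mitochondrial DNA, so the nuclear genes supply the remaining subunits and the factors that insert haem, copper, flavin and iron-sulfur clusters. KDM2A carries a zinc finger that binds unmethylated CpG dinucleotides, which places it at CpG island promoters, where it removes H3K36me2. The microRNA miR-155, which is induced when B cells are activated, was absent from the KO cells.

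Splenic B cells of C57BL/6 J background were isolated from wild-type (WT) and Mir155-deficient (KO) mice by depletion of other cells and kept for 2 days at 1% oxygen with anti-CD40 (1 µg/ml), anti-IgM (5 µg/ml) and IL-4 (4 ng/ml), so that hypoxia and activation were shared by both genotypes. Chromatin was immunoprecipitated for KDM2A and for H3K36me2 in 3 WT and 3 KO samples each, replicate 1 coming from a male and replicates 2 and 3 from females, and the 12 peak lists were used. The 6 input libraries were not analysed here, and the labels do not say whether animals were pooled. The Mir155 deletion cannot be read from these lists: a KDM2A peak lay within 2 kb of Mir155 in 1 WT and 1 KO list, and an H3K36me2 peak in 0 lists. Of the B cell markers, Cd79a, Cd79b and Pax5 had a KDM2A promoter peak in all 6 lists and Ms4a1 in 4, and of the markers of other cells Cd3e, Cd3g, Lyz2 and Ncr1 had it in 0 and Csf1r in 1, although a peak list does not measure expression.

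The KDM2A lists held 23372 to 29105 peaks in WT and 15387 to 21705 in KO. The H3K36me2 lists held 85387 to 94136 peaks in WT. The KO H3K36me2 lists stood apart from each other, with 106720 peaks in replicate 1 against 37447 and 45180 in replicates 2 and 3. KO replicate 1 was also the male sample, so sex and list length cannot be told apart among these lists. Sequencing depth is unknown, so the number of peaks per list and the genotype cannot be told apart in the counts of bound genes below. The exception is where lists were cut to an equal length, which does not equalise depth.

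The promoters shown here were read from RefSeq (GRCm38.p6), from 170 bases before to 30 bases from the start site, 5′ to 3′ along the gene. CpG dinucleotides, the letters that the KDM2A zinc finger reads when unmethylated, stand in capitals. Sdhaf2 and Cox5a had the largest KDM2A decreases in KO relative to WT among the genes bound in every list, and Atpaf1 and Atp5l the largest increases. Cox8a and its muscle-type counterpart Cox8b form a bound and a nearly unbound pair, and Cox10 and Cox7b2 had no KDM2A promoter peak in any list. Atpaf1 has 2 RefSeq start sites, and the downstream one is shown because the KDM2A peaks were centred a median of 103 bp from it and 281 bp from the other.
Sdhaf2, chr19:10525180-10525379, minus strand: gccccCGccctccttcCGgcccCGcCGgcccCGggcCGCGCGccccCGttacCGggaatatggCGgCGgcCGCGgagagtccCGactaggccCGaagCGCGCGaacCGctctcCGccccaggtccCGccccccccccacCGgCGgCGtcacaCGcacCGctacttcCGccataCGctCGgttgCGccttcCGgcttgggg
Cox5a, chr9:57521062-57521261, plus strand: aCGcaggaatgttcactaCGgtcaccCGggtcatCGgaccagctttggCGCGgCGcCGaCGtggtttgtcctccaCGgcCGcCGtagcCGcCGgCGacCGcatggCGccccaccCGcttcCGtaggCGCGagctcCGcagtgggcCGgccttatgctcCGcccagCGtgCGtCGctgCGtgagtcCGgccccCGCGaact
Atpaf1, chr4:115784836-115785035, plus strand: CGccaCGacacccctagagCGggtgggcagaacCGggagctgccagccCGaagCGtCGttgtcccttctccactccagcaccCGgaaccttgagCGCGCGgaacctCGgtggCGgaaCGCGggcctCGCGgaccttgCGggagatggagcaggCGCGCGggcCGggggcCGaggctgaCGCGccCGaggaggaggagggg
Atp5l, chr9:44920713-44920912, minus strand: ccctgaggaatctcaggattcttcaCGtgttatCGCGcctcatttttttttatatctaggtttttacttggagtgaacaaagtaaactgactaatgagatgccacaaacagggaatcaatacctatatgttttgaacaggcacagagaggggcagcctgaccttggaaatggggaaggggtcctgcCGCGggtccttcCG
Cox8a, chr19:7217587-7217786, minus strand: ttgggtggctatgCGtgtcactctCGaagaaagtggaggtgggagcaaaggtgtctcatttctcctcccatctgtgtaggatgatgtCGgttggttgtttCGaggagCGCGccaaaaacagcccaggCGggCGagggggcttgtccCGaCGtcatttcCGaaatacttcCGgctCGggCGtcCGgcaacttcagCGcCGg
Cox8b, chr7:140900417-140900616, minus strand: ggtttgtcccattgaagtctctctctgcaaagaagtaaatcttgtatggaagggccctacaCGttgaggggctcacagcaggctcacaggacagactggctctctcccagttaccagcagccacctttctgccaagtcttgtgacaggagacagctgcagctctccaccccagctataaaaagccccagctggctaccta
Cox10, chr11:64079443-64079642, minus strand: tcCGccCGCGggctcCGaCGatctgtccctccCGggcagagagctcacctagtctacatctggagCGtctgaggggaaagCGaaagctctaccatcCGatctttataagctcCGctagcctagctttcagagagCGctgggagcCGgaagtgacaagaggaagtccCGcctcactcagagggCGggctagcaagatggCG
Cox7b2, chr5:71548176-71548375, minus strand: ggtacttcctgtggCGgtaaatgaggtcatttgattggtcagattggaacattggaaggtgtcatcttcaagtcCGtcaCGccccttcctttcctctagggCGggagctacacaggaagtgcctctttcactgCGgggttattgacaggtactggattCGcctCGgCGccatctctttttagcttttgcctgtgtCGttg

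These stretches of 200 bases held 32 CpGs in Sdhaf2, 31 in Cox5a, 26 in Atpaf1, 6 in Atp5l, 17 in Cox8a, 1 in Cox8b, 15 in Cox10 and 9 in Cox7b2. The never-bound Cox10 promoter thus held more CpGs in this stretch than that of Atp5l, which was bound in every list. Over the wider 1001 bp around the principal TSS the order was the other way, with 50 CpGs in Cox10, 57 in Atp5l and 63 in Atpaf1. RefSeq promoters of 300 bases (250 before to 50 after the start) were matched for 52 of the 65 symbols, 2 of them through an older symbol, and gave 57 sequences. Their median CpG count was 20, against 7 over all 32851 promoters in the table.

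Motifs of factors known for mitochondrial genes were searched by exact letters on both strands. The ETS (GABPA) core CCGGAAG occurred in 36.8% of the 57 promoters and in 8.86% of all promoters. The NRF1 core GCGCATGCG occurred in 10.5% and 1.75%, respectively, in Atp5g2, Atp5k, Atp5l, Cox6a1, Uqcr11 and Uqcrc1. The YY1 core AAGATGGCG occurred in 7.02% and 1.40%, in Atp5j, Atp5j2, Atpaf2 and Cox10. The ETS and YY1 letters can overlap at the AAG they share, and a match is only an occurrence of letters. Each of these cores contains a CpG, and the background was not matched for CpG count (median 20 in the 57 promoters, 7 in all promoters). The never-bound Cox10 promoter contained both the ETS and the YY1 letters, and all 6 promoters with the NRF1 letters belonged to genes bound by KDM2A in both genotypes, as did 42 of the 57 promoters searched.

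KDM2A peaks lay at most promoters of the respiratory genes in both genotypes. A promoter was counted in a list when a peak came within 2 kb of any annotated transcription start site (TSS), and its value is the fold enrichment of the strongest such peak over the background estimated by the peak caller. In WT, 54, 55 and 52 of the 66 genes had a promoter peak (81.3% ± 2.31, SD, n = 3), and in KO 45, 42 and 48 (68.2% ± 4.55, SD, n = 3). The genotypes did not overlap in this count. Among all protein-coding genes the WT share was 47.4% ± 0.796 and the KO share 41.2% ± 3.54 (SD, n = 3), and these did not overlap either. The members' share was 1.69, 1.78 and 1.67 times that of all genes in the WT lists and 1.71, 1.65 and 1.61 times in the KO lists.

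Binding in a genotype was then called where 2 or 3 of the lists held the peak. By this rule 46 of the 66 genes (69.7%) were bound in both genotypes, against 39.4% of all protein-coding genes. In WT only, 9 genes (13.6%) were bound, against a background of 8.32%. In KO only, 0 were bound, against 2.31%, and 11 (16.7%) were bound in neither. In all 6 lists, 33 genes (50%) had a peak, against 26.4% of all genes. The share bound in KO only was low in both gene sets. With each list reduced to an equal number of its strongest peaks, the WT-only group again numbered 9 members (13.6%, background 5.42%) and the KO-only group 3 (4.55%, background 4.80%). Leaving out KO replicate 1, 2 or 3, so that both remaining KO lists had to hold the peak, gave 16, 15 and 20 members bound in WT only (24.2%, 22.7% and 30.3%, against 14.9%, 14.0% and 17.3% of all genes). Leaving out WT replicate 1, 2 or 3 gave 4, 4 and 2 bound in KO only (6.06%, 6.06% and 3.03%, against 6.39%, 5.85% and 5.91% of all genes).

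**Figure D1:**
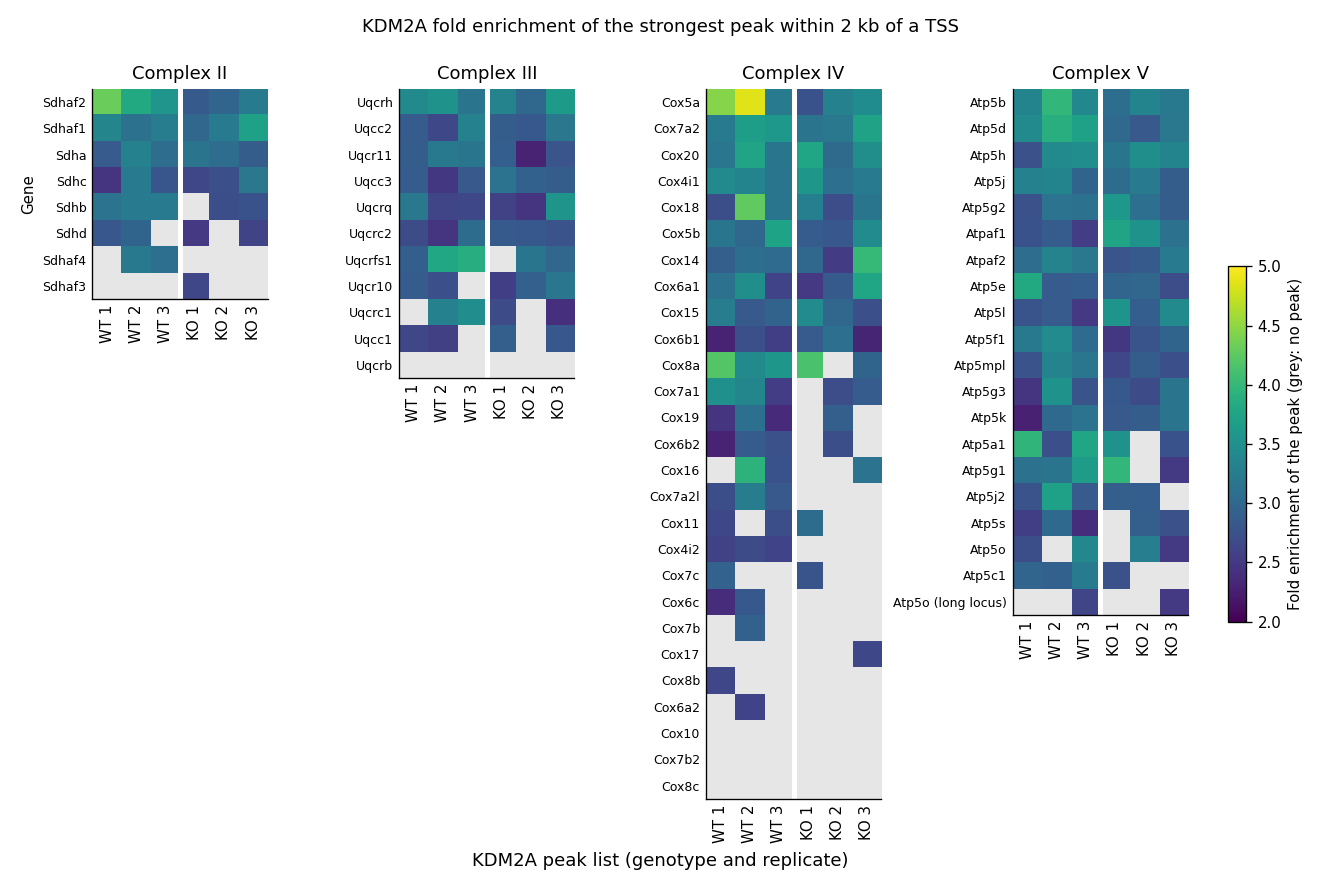
KDM2A fold enrichment (colour, 2 to 5) of the strongest peak within 2 kb of a TSS for each of the 66 genes (rows, by complex and by number of lists) in the 3 WT and 3 KO lists (columns); grey means that the list has no peak. Rows filled in all 6 lists number 33, and the rows that are grey throughout are Uqcrb, Cox10, Cox7b2 and Cox8c.

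The complexes differed in how many of their genes were bound. In both genotypes KDM2A bound 6 of 8 genes of complex II, 10 of 11 of complex III, 12 of 27 of complex IV and 18 of 20 of complex V. Complex IV thus had the lowest share (44.4%), near the 39.4% of all genes, and it held 7 of the 9 genes bound in WT only. Without the 7 tissue-restricted isoforms, 11 of 20 complex IV genes (55%) were bound in both genotypes. By role, 34 of 41 main subunits (82.9%), 11 of 18 assembly factors (61.1%) and 1 of 7 isoforms (14.3%) were bound in both genotypes. The groups are small and no test of these shares was made.

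**Figure D2:**
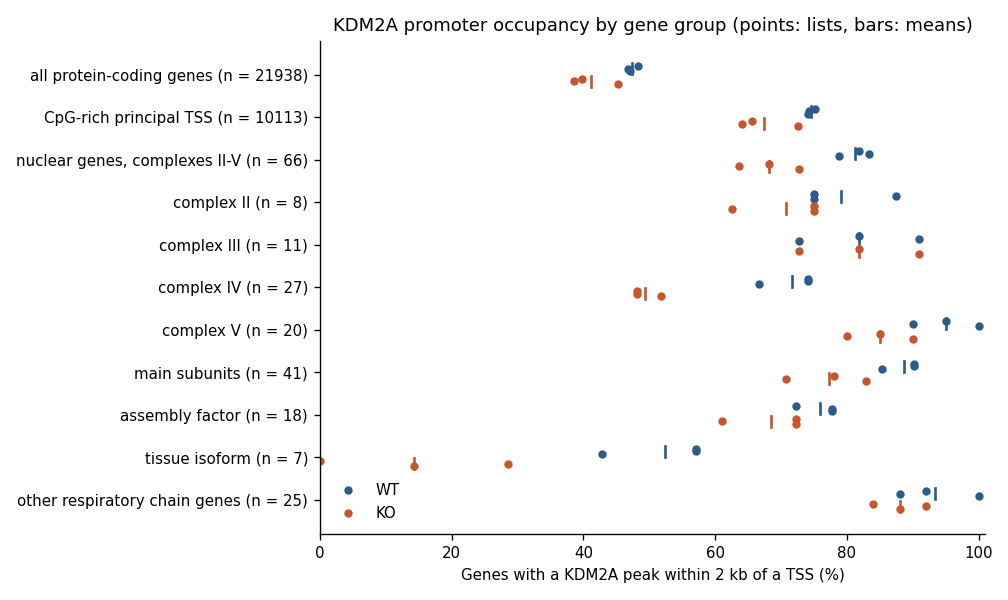
Share of genes with a KDM2A peak within 2 kb of a TSS (x axis, %) in each list (points) with group means (bars), for WT and KO and for the gene groups on the y axis with their numbers. The respiratory genes lie between 78.8% and 83.3% in WT and between 63.6% and 72.7% in KO, and the tissue isoforms are the lowest group in KO, with 0 of 7 in replicate 1, but not in WT.

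CpG content around the principal TSS went with occupancy when taken over 1001 bp, but not in the 300-base RefSeq promoters. In those the median was 19.5 CpGs in 42 sequences of genes bound in both genotypes and 20 in 15 of the other members. With CpG-rich defined as GC of at least 50% and an observed-to-expected CpG ratio of at least 0.6 in the 1001 bp around the principal TSS, 45 of the 66 genes (68.2%) were CpG-rich, against 46.1% of all genes. Of these 45, 37 (82.2%) were bound in both genotypes, and of all 10113 CpG-rich genes 66.6% were. Of the 21 genes outside this class, 9 (42.9%) were bound in both genotypes, against 16.1% of all such genes. Both classes of respiratory gene were therefore bound more often than all genes of their class, by the counts alone. The classes do not equalise CpG content. Outside the CpG-rich class the members had a median of 34 CpGs in 1001 bp, against 14 for all such genes, and inside it 63 against 73. The class was also taken at the principal TSS, while binding was counted at any TSS. None of the 7 isoforms was CpG-rich, and 33 of the 41 main subunits were.

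Many of these promoters are shared with a neighbour. A protein-coding gene started head to head within 1 kb of 19 of the 66 genes (28.8%), against 11.0% of all genes. Such pairs included Sdhd with Timm8b, an import chaperone gene, Atp5j with Gabpa, which encodes an ETS factor, Cox15 with Cutc, and Cox4i1 with Emc8. Of the 19, 16 (84.2%) were bound in both genotypes, and of the 47 others 30 (63.8%), against 39.4% of all genes. CpG-rich were 84.2% of the 19 and 61.7% of the 47, so partner and CpG content were not separated. At 14 of the 62 genes with any promoter peak, the peak's centre was nearer to the TSS of another protein-coding gene (22.6%, against 12.1% of all genes with a peak), so the KDM2A peak cannot be assigned to the respiratory gene alone. Sdhaf1 was among the 14 by the GENCODE start sites: its TSS has 4 CpGs in 1001 bp, and the peak centre lay a median of 1378.5 bp inside the gene and 776.5 bp from the TSS of E130208F15Rik. RefSeq places the Sdhaf1 start 1520 bp further into the gene, with 11 CpGs in the 200 bases there, and the peak centres lay a median of 322.5 bp from that start, so by RefSeq the peak was nearer to Sdhaf1.

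The peaks were narrow and centred on the start site. For the 62 genes with a peak the median of peak width was 669 bp and the median distance from peak centre to the nearest own TSS 135 bp, against 721 bp and 181 bp over all genes with a peak. In WT a KDM2A peak covered the position 50 bp downstream of the principal TSS in 66.7% ± 2.62 of the respiratory genes, and in KO in 54.5% ± 2.62 (SD, n = 3 each). Over all genes these values were 35.3% ± 1.06 and 29.8% ± 3.54. At the centre of the merged strongest peaks the annotation of the gene itself gave upstream sequence for 19 genes, an untranslated exon for 15, an intron for 13, a coding exon for 10, a non-coding exon for 4 and downstream sequence for 1. Of the 57 genes with peaks in 2 or more lists, the strongest peaks of 47 overlapped in a single interval and those of 10 did not.

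**Figure D3:**
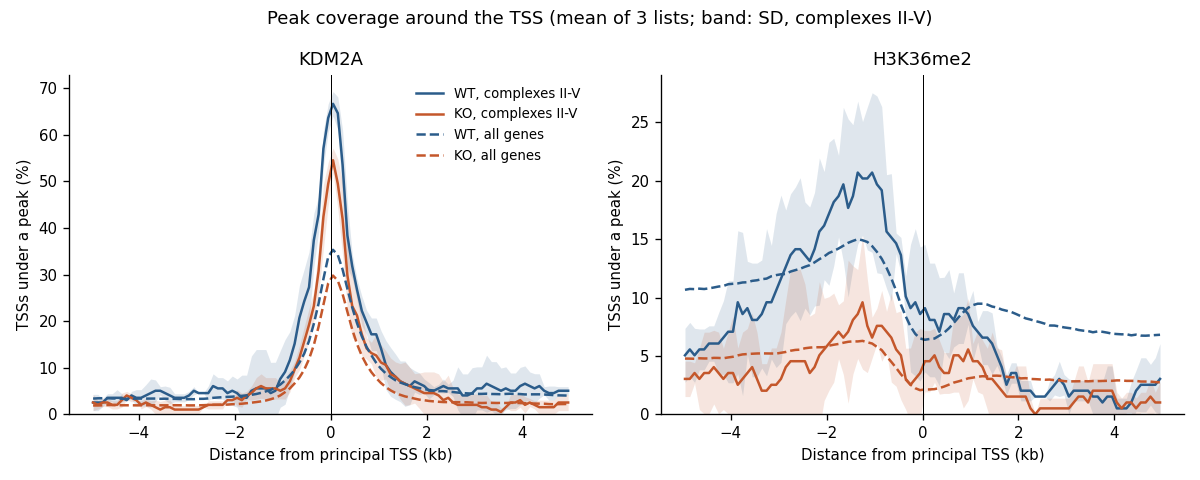
Share of principal TSSs under a peak (y axis, %) by distance from the TSS (x axis, kb, 100 bp steps) for KDM2A (left) and H3K36me2 (right), as means of 3 lists for WT and KO, with the SD as a band for the respiratory genes (solid) and all protein-coding genes dashed. KDM2A reaches 66.7% in WT and 54.5% in KO at 50 bp downstream of the respiratory TSSs, and H3K36me2 lies higher upstream than downstream.

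Complex II genes had WT folds between 2.45 and 4.32. Sdhaf2, the factor that attaches flavin to the catalytic subunit, had the highest mean fold of the complex and shares a promoter region with Cpsf7. The WT folds of Sdhaf2 were 4.32, 3.83 and 3.57, and its KO folds 2.85, 2.98 and 3.25. Every WT value of Sdhaf2 was above every KO value, as for 10.1% of all genes called in all 6 lists. For Sdhaf1, which serves iron-sulfur insertion, the WT folds were 3.37, 3.13 and 3.27 and the KO folds 2.99, 3.22 and 3.72, and the genotypes overlapped. Sdha, the flavoprotein, had folds of 2.86, 3.32 and 3.07 in WT and 3.15, 3.08 and 2.89 in KO, again overlapping. Sdhb, the iron-sulfur subunit, was called in all WT lists (3.15, 3.25 and 3.22) and in KO replicates 2 and 3 (2.72 and 2.76). Sdhc, a membrane anchor, was called in all 6 lists at 2.45 to 3.22, and the other anchor, Sdhd, in WT replicates 1 and 2 (2.82 and 2.97) and KO replicates 1 and 3 (at most 2.62). Sdhaf4, an assembly factor for the catalytic subunit, was called only in WT replicates 2 and 3 (3.21 and 3.10), and Sdhaf3 only in KO replicate 1 (2.64).

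In complex III the hinge protein gene Uqcrh and the Rieske iron-sulfur protein gene Uqcrfs1 had the highest mean folds. Uqcrh had 3.43, 3.54 and 3.15 in WT and 3.34, 3.01 and 3.64 in KO, and its peak lay nearer to the TSS of Lrrc41. Uqcrfs1 had 2.91, 3.79 and 3.87 in WT and 3.17 and 2.99 in KO replicates 2 and 3, with no peak in KO replicate 1. The core subunit gene Uqcrc1 had 3.31 and 3.48 in WT replicates 2 and 3 and 2.70 and 2.41 in KO replicates 1 and 3. Uqcc3, an assembly factor for cytochrome b, had 2.88, 2.48 and 2.84 in WT and 3.14, 2.94 and 2.89 in KO, every KO value being above every WT value, as for 2.13% of all genes called in all 6 lists, but not once each list was centred on its median. Uqcrb, a small subunit, had no promoter peak in any list and was the only complex III gene bound in neither genotype.

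Complex IV held both the gene with the highest KDM2A fold and 8 of the 11 genes bound in neither genotype. Cox5a, a nuclear subunit of the oxidase, had the highest mean fold of the 66 genes (3.68 over 6 lists): 4.46, 4.86 and 3.25 in WT and 2.75, 3.32 and 3.46 in KO. WT replicates 1 and 2 were above all KO lists, and WT replicate 3 was not. Cox8a, a small subunit, followed in this complex with 4.20, 3.44 and 3.59 in WT and 4.14 and 2.96 in KO replicates 1 and 3. Cox4i1, the main isoform of subunit 4, was called in all lists, at 3.42, 3.35 and 3.16 in WT and 3.59, 3.10 and 3.24 in KO. Its counterpart Cox4i2, known for lung expression and for induction at low oxygen, was called in the 3 WT lists (2.58, 2.69 and 2.61) and in 0 KO lists, but the 3 WT peaks did not overlap each other: relative to its nearest TSS their centres lay at 2023, -196 and -2576 bp, negative values being upstream.

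Of the other complex IV genes bound in WT only, Cox7a2l, which takes part in joining complexes III and IV, was called in 3 WT lists (2.72, 3.26 and 2.84) and 0 KO lists, at chr17:83514158-83514709. The centre of that interval falls in an intron, but the peak centres lay a median of 103 bp upstream of an annotated TSS of the gene. Cox6c, a subunit gene, was called in WT replicates 1 and 2 (2.38 and 2.83) and in 0 KO lists. The copper-related factors Cox11 and Cox19 were called in 2 and 3 WT lists and in 1 KO list each. The strongest Cox19 peak of WT replicate 3 (chr5:139351204-139352804) did not overlap those of the other lists. Cox16, an assembly factor, was called at 3.94 and 2.76 in WT replicates 2 and 3 and at 3.14 in KO replicate 3, and the testis isoform Cox6b2 in 3 WT lists and in KO replicate 2 (2.72). For these 4 genes a KO list also held a peak, and the KO value of Cox11 (3.06) was above both of its WT values (2.65 and 2.73). In Cox10, which makes haem O, the precursor of haem A, and in the isoforms Cox7b2 and Cox8c, 0 of 6 lists had a promoter peak. The muscle isoforms Cox6a2 and Cox8b had 1 each (2.60 in WT replicate 2 and 2.64 in WT replicate 1), while the muscle isoform Cox7a1 was bound in both genotypes, in 5 lists (3.50, 3.37 and 2.54 in WT and 2.71 and 2.87 in KO replicates 2 and 3).

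Complex V was bound almost throughout, with 19, 18 and 20 of its 20 genes called in WT replicates 1, 2 and 3 and 17, 16 and 18 in the KO replicates, against 46.8% to 48.3% of all genes in WT and 38.6% to 45.2% in KO. The 20 include both Atp5o records. In KO replicate 3 the strongest peak of both was the same (chr16:91924473-91925738), centred 6524.5 bp from the RefSeq start of Atp5o. Atp5b, the catalytic beta subunit, had the highest mean fold, with 3.35, 3.99 and 3.40 in WT and 3.09, 3.35 and 3.21 in KO. In 3 of its lists the strongest peak was a broad one at and beyond the gene's 3′ end, within 2 kb of internal start sites of short transcripts, so that its 6 values do not all describe the main promoter. Atp5a1, the alpha subunit, had WT folds of 3.96, 2.74 and 3.78, and KO replicates 1 and 3 had 3.53 and 2.75. Atp5c1, the gamma subunit, was the complex V gene bound in WT only, with 2.98, 2.93 and 3.23 in WT and 2.74 in KO replicate 1. Atpaf1, the chaperone of the beta subunit, went the other way, with 2.75, 2.87 and 2.55 in WT and 3.75, 3.53 and 3.12 in KO. Atp5l, subunit g of the membrane part, had 2.78, 2.86 and 2.49 in WT and 3.56, 2.89 and 3.43 in KO. Every KO value was above every WT value for both Atpaf1 and Atp5l (background 2.13%).

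The question whether KDM2A occupancy changed in KO was tested on the log2 fold, with each list centred on its median, for the 5786 genes called in all 6 lists. With limma and Benjamini-Hochberg adjustment, 0 genes (0%) passed an adjusted p of 0.05, and neither did any of the 33 respiratory genes tested, whose adjusted p values ran from 0.914 to 1.00. At an unadjusted p under 0.05, 299 genes and 4 members were listed. The 4 were Atpaf1 and Atp5l among those higher in KO (2 of 33, background 3.16%) and Cox5a and Sdhaf2 among those lower (2 of 33, background 2%). The change was 0.41 ± 0.11 for Atpaf1, 0.34 ± 0.11 for Atp5l, -0.30 ± 0.13 for Sdhaf2 and -0.32 ± 0.15 for Cox5a (log2, KO minus WT, ± SE, n = 3 per genotype), each with a limma adjusted p of 0.914. Without KO replicate 1 the unadjusted count was 2 of 33 members, against 4.42% of all genes tested. With only peaks of −log10 q of at least 2 it was 2 of 12 members, against 5.84%, and with equal list lengths 1 of 24, against 5.2%; Atpaf1 and Atp5l were no longer called in all 6 lists in either setting and could not be fitted. Without centring, 6 members and 344 genes had an unadjusted p under 0.05, with 5.24% of all genes tested being lower in KO and 5.95% listed in either direction, and with percentile ranks of the fold these shares were 3.92% and 4.61%.

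The remaining 29 changes lay between those of Atp5d (-0.22) and Uqcc3 (0.19), followed inwards by Atp5f1 (-0.18) and Cox6b1 (0.18). Atp5d and Cox6b1 are among the 10 genes whose strongest peaks did not fall in a single interval, as are Cox18, Atp5b, Atp5g3 and Atp5h, so their changes compare different peaks. Leaving out a single library moved Uqcc3 to 0.09 (without WT replicate 2), Cox6b1 to 0.08 and 0.31 (without KO replicates 2 and 3), Atp5f1 to -0.10 (without KO replicate 1) and Cox5a to -0.49 (without WT replicate 3). The median change of the 33 genes was 0.06, 20 being above and 13 below 0, and the median over all genes tested was 0.00. On the centred scale every KO list was above every WT list for 2 of the 33 (Atp5l and Atpaf1), against 5.2% of all genes tested, and below for 3 (Atp5d, Atp5f1 and Sdhaf2), against 5.17%. By complex the median change was 0.06 for 4 genes of complex II, 0.07 for 6 of complex III, 0.05 for 10 of complex IV and -0.01 for 13 of complex V. No test of these medians was made.

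**Figure D4:**
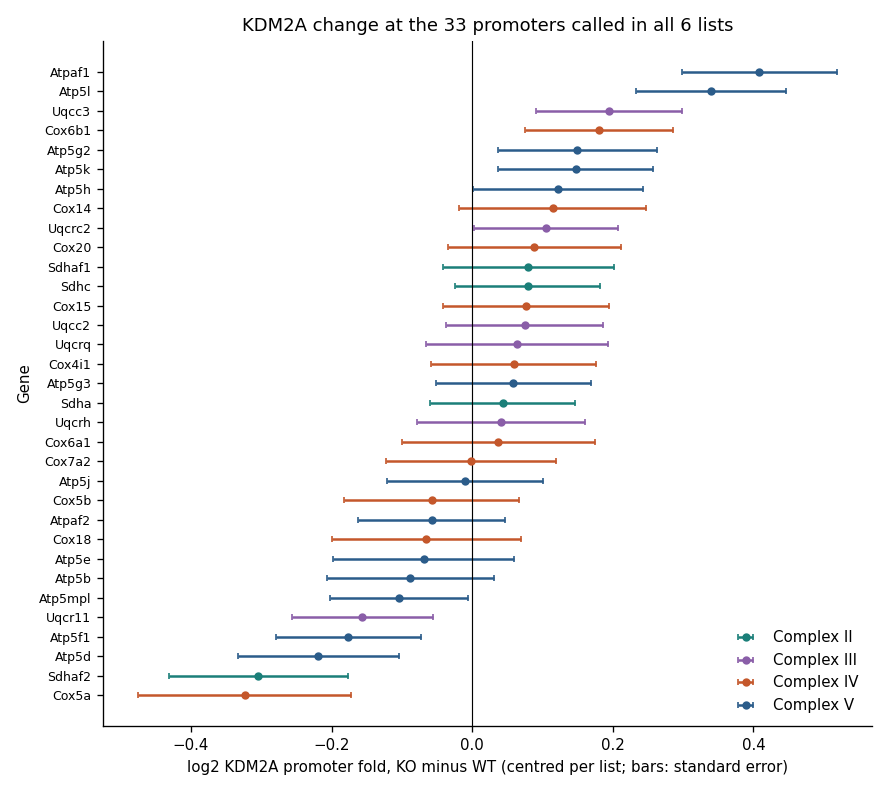
Change in KDM2A promoter fold (x axis, log2, KO minus WT, each list centred on its median, bars are standard errors from limma) for the 33 genes called in all 6 lists (y axis), coloured by complex. The points run from -0.32 (Cox5a) to 0.41 (Atpaf1), and no gene passed an adjusted p of 0.05.

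A fold rule of the kind used in the study's methods was also applied, asking for a mean fold above 3 in a genotype together with either a ratio above 1.17 or binding in that genotype alone. Of the 55 members bound in either genotype, 8 were WT-enriched (Atp5c1, Atp5d, Atp5f1, Cox16, Cox5a, Sdhaf2, Sdhaf4 and Uqcrc1), which is 14.5% against 11.4% of the 10974 bound genes. KO-enriched were 2 (Atp5l and Atpaf1), 3.64% against 2.1%. Both shares lie close to the background. The rule has no error term, and for Atp5d it compares different peaks.

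Other genes of the chain outside the symbol rule, 25 in number (among them Cyc1, Cycs, Surf1, Sco1 and Sco2, Bcs1l and the Coa factors), were examined in the same way. KDM2A bound 24 of them in both genotypes (96%) and Cmc1, a complex IV assembly factor, in WT only. Of the 16 called in all 6 lists, 0 passed an adjusted p of 0.05 in limma and 0 had an unadjusted p under 0.05, with a median change of 0.03 (log2). Sco2, a copper chaperone of complex IV, was the only WT-enriched gene by the fold rule, with 4.56, 3.38 and 2.86 in WT and 2.93, 2.88 and 2.87 in KO, the highest KO value being above the lowest WT value.

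H3K36me2 peaks lay upstream of the start site more than downstream, at these genes and at all protein-coding genes. In WT the mark covered a mean of 19.2% ± 5.44 of positions 1 to 2 kb upstream of the respiratory TSSs and 5.25% ± 0.683 of those 1 to 2 kb downstream (SD, n = 3), and over all genes 14.5% ± 1.27 and 9.13% ± 0.461. From 2 to 5 kb downstream it covered 1.84% ± 0.421, against 7.26% ± 0.801 over all genes. In KO the values were 7.37% ± 3.67 upstream and 2.83% ± 2.40 downstream at 1 to 2 kb (SD, n = 3). Each WT list was above each KO list for the upstream window (16.5%, 25.5% and 15.6% against 10.0%, 8.94% and 3.18%), and over all genes the genotypes did not overlap in this window either, the KO mean being 6.12% ± 3.28 (SD, n = 3). Respiratory genes are shorter than most (median 7608 bp against 17425 bp), and windows beyond a short gene's end fall outside it.

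A peak of H3K36me2 within 2 kb of a TSS was present in at least 2 WT lists but not in 2 KO lists at 24 of the 66 genes (36.4%), against 21.5% of all genes. In both genotypes it was present at 11 (16.7%, background 19.3%) and in KO only at 2, Atp5l and Sdhc (3.03%, background 1.55%). Both KDM2A and H3K36me2 had a peak in that window at 32 members in WT (48.5%, background 32.2%) and at 10 in KO (15.2%, background 14.5%). By list, such an H3K36me2 peak was present at 53.0%, 56.1% and 50% of the members in WT and at 34.8%, 18.2% and 25.8% in KO, and at 39.3%, 40.6% and 41.4% of all genes in WT and 38.6%, 16.1% and 17.7% in KO. KO replicate 1, the longest list, was thus below every WT list for the members and near the WT lists for all genes, while KO replicates 2 and 3, the shortest, were low for both. At the 25 other genes of the chain such a peak was present at 44%, 52% and 64% in WT and at 60%, 20% and 8% in KO. KO replicate 1 lay within the WT range there.

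Coverage of the gene body by H3K36me2 peaks was low. The mean over the 66 genes was 5.67%, 2.93% and 3.52% in the WT lists (4.04% ± 1.44, SD, n = 3) and 4.96%, 0.909% and 0.675% in the KO lists (2.18% ± 2.41). KO replicate 1 lay within the WT range and KO replicates 2 and 3 below it, and the difference of -1.86 percentage points became -3.25 without KO replicate 1, -1.22 without KO replicate 2, -1.11 without KO replicate 3 and -1.05 without WT replicate 1. With only peaks of −log10 q of at least 2 its direction turned, to 0.212 percentage points. Over all genes the means were 6.19% ± 0.581 in WT and 2.44% ± 1.97 in KO. Relative to the percent of the genome that each list covered, the WT value of the members was 0.860 ± 0.436 and the KO value 0.802 ± 0.492, while all genes had 1.26 ± 0.0529 and 1.00 ± 0.256 (SD, n = 3). On this scale the genotypes differed by less than the spread between lists for the members. No body peak was found in any of 6 lists for 24 genes (36.4%), against 41.8% of all genes, and these 24 included Cox4i1 and Atp5a1.

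**Figure D5:**
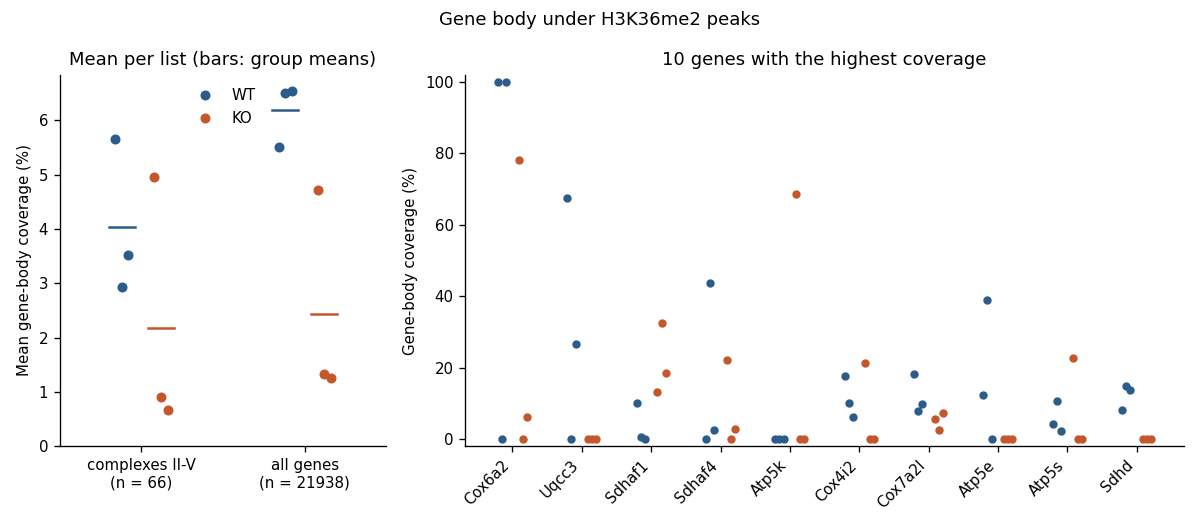
Left: mean share of the gene body under H3K36me2 peaks (y axis, %) per list (points) with group means (bars), for the 66 respiratory genes and all protein-coding genes. Right: the share (y axis, %) in every list for the 10 respiratory genes with the highest mean, WT and KO points side by side; Cox6a2 spans 0% to 100% within WT, and Sdhd is at 0% in every KO list.

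The difference between genotypes was tested per gene on the percent of the body covered, for the 10351 genes with a body peak in at least 2 lists. With limma and Benjamini-Hochberg adjustment 0 genes (0%) passed 0.05, including 0 of the 28 members tested, and 2153 genes and 2 members had an unadjusted p under 0.05. Lower in KO at that p was Sdhd alone (1 of 28, background 20.7%), and higher in KO was Sdhaf1 alone (1 of 28, background 0.058%). Every KO list was below every WT list for Cox16, Cox7a2l and Sdhd (3 of 28, background 28.1%) and above for Sdhaf1 (1 of 28, background 0.106%). The median difference was -1.79 percentage points for the 28 members and -4.46 over all genes tested, and 19 of 28 and 9349 of 10351 were below 0. Without KO replicate 1 the unadjusted counts were 3333 genes (32.2%) and 8 members (28.6%), without KO replicate 2 616 (5.95%) and 1 (3.57%), and without KO replicate 3 619 (5.98%) and 2 (7.14%). The share of all genes tested with such a p fell from 20.8% to 7.05% when coverage was scaled to the percent of the genome that each list covered (2 of 28 members), to 10.8% with equal list lengths (2 of 17) and to 1.91% with only peaks of −log10 q of at least 2 (0 of 5).

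Sdhd had 8.22%, 15.0% and 13.8% of its body under H3K36me2 peaks in WT and 0% in each KO list, a difference of -12.3 percentage points (limma adjusted p = 0.238). Sdhaf1 had 10.1%, 0.442% and 0% in WT and 13.2%, 32.6% and 18.4% in KO, a difference of 17.9 (limma adjusted p = 0.238). Sdhaf1 rested on a short gene of 2490 bp, in which a peak that starts nearby covers a large share. Cox7a2l had 18.3%, 7.92% and 9.84% in WT and 5.49%, 2.58% and 7.29% in KO. The other genes with high coverage varied within a genotype as much as between them. Cox6a2, the muscle isoform, had 100%, 0% and 100% in WT and 78.1%, 0% and 6.30% in KO. Uqcc3 had 67.4%, 0% and 26.5% in WT and 0% in each KO list, and Atp5k 0% in each WT list and 68.7% in KO replicate 1 alone. Atp5e had 12.3%, 39.0% and 0% in WT and 0% in each KO list. Atp5s had 4.20%, 10.6% and 2.28% in WT and 22.8%, 0% and 0% in KO.

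By role, the tissue isoforms had the highest H3K36me2 body coverage, 11.1% ± 8.44 in WT and 5.03% ± 7.94 in KO, and the main subunits had 2.69% ± 0.802 and 1.56% ± 1.90 (SD over 3 lists). The isoform mean rested on Cox6a2 and Cox4i2, since 5 of the 7 isoforms had no body peak in any list. KDM2A promoter peaks were present at 57.1%, 57.1% and 42.9% of the isoforms in WT and at 0%, 28.6% and 14.3% in KO, against 46.8% to 48.3% and 38.6% to 45.2% of all genes. Cox6a2 and Cox4i2 carried H3K36me2 in the body in some lists and not in others.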

How the data were processed

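Per the labels and the study's methods, the authors used BWA for alignment to GRCm38 and MACS2 for broad peaks of each sample, within a published ChIP-seq workflow that also uses bedtools. The deposited broad-peak lists give a fold enrichment (a linear ratio) and −log10 p and q values per peak, and no read counts, so depth is unknown. The lists came from 3 WT and 3 KO samples per antibody. The lowest −log10 q of a list was 1.00 to 1.03, and weaker signal is not listed, so a missing peak is not an absence of binding. The study's own comparison tables were not used.

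Peaks were intersected with GENCODE M21 protein-coding genes (pandas 2.3.3, numpy 2.4.6). A promoter value was the fold of the strongest peak within 2 kb of any TSS, and gene-body coverage was the percent of gene length under peaks. KO was compared with WT by limma 3.58.1 in R 4.3.3 (variance trend, no block) on log2 fold centred on each list's median, for genes called in all 6 lists, and on percent coverage, for genes covered in at least 2 lists. Genes outside these limits entered only the counts, which have no test. Adjusted p values follow Benjamini-Hochberg over all genes tested, and the code was tested on simulated data. With 3 samples per genotype an exact permutation of a single value cannot go below p = 0.1. Beyond the sexes, nothing states how the replicates relate to animals, so p values measure the spread between these samples.

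Genes named are those with no KDM2A promoter peak, those bound in 1 genotype only, the 4 largest changes in each direction, the 2 highest mean folds per complex, the 10 highest H3K36me2 coverages and a list of core subunits and tissue isoforms. Other members are named as examples chosen after their values were seen. The members, lists and tests were chosen with earlier results of these data known. Promoter sequences came from RefSeq GRCm38.p6. Alternatives were a −log10 q of at least 2, equal list lengths, a 1 kb window, other rules for bound, scaling, leaving out each library and the replicate number as a block. The principal TSS alone was added after seeing the data. A marker gene of the cell type list is not reported here.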

Additional observations from a re-analysis of the deposited data

Results flagged for a closer look

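The median KDM2A promoter fold of the respiratory genes differed by 0.0273 (KO minus WT) between the male libraries, which are replicate 1 of each genotype, and by -0.302 to -0.0517 in the female pairings. The directions were opposite in every pairing, with 1 male library per genotype, and whether males and females differ was not tested. The median over all protein-coding genes moved the same way, by 0.066 in the male pair and by -0.260 to -0.0459 in the female pairings. The mean H3K36me2 body coverage of the respiratory genes differed by -0.708 percentage points in the male pair and by -2.85 to -2.02 in the female pairings.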

How the results depend on the processing

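The count of respiratory genes bound by KDM2A in both genotypes (46) was 31 to 53 over 13 alternatives, all within 1.5 times, and 35 to 44 with a library left out. The count bound in KO only rose from 0 to 3 with a −log10 q of at least 2 (4.55%, against 2.43% of all genes), 3 with equal list lengths (4.55%, 4.80%), 1 when all 3 libraries were required (1.52%, 2.99%) and 2 when any library counted (3.03%, 3.13%), and was 0 to 4 with a library left out. The count bound in WT only (9) was 6 to 20 with a library left out, when the share of all genes was 4.75% to 17.3%. Leaving out a library asks for both remaining lists and so tightens the rule by construction. The principal TSS alone, added after seeing the data, gave 45 genes bound in both genotypes. The difference in mean H3K36me2 body coverage (-1.86) reversed to 0.212 percentage points with a −log10 q of at least 2, and the cause was not tested. With equal list lengths the difference was -0.989, and over the first 2.5 kb downstream of the 5′ end it was -3.23. No member passed an adjusted p of 0.05 in limma under any alternative for KDM2A or H3K36me2, and over all genes only log2(percent + 1) of H3K36me2 coverage gave calls, 2. The log2 changes of the 8 genes with the largest KDM2A changes kept their sign wherever they were fitted, but the 4 higher in KO could not be fitted with equal list lengths, they and Sdhaf2 and Atp5f1 with a −log10 q of at least 2, and Cox6b1 with the 1 kb window. The replicate number did not pair the samples: correlations of same-numbered deviations lay between -0.0806 and 0.0595. With the replicate block 0 members passed for KDM2A and 0 for H3K36me2, with 4 of 33 and 4 of 28 at an unadjusted p under 0.05, against 5.32% and 14.5% of all genes tested. Except with equal list lengths, list length and genotype cannot be told apart in any count of bound genes, and equal lengths do not equalise depth.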
